A study of Glycine max with 21 samples.

Results

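In soybean roots, a set of 150 of 62537 gene models had its lowest level after 12 hr of stress, whether the stress was dehydration or salt. The members were chosen from the deposited normalized counts: for each group the mean of its 3 libraries plus 10 was put on the log2 scale, and the score of a gene was the lowest value among the control and the 1 and 6 hr groups minus the higher value of the 12 hr groups. A score above 0 was found for 2042 gene models, and the 150 highest make up the set. The rule leaves out 4 gene models of the MYB/HD-like transcription factor class that follow the same course, Glyma16g01980, Glyma07g05410, Glyma03g42260 and Glyma19g45030. They would have ranked 4, 11, 38 and 25 by score, and the mean of Glyma16g01980 went from 7042 normalized counts in the control to 852 and 881 at 6 hr and 181 and 170 at 12 hr of dehydration and salt. The levels at 12 hr against the earlier groups chose the members and are a description, from which nothing is read. All 7 groups entered the score, so the calls and p-values given below for other pairs of groups are not independent of the choice either. They describe the members singly, and no count of calls is support for a statement on the set.

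The roots came from seedlings of Glycine max cv. Williams 82 at the first trifoliolate stage, all grown on moist germination paper. The groups were an unstressed control at 0 hr, dehydration imposed in air for 1, 6 or 12 hr, and salt stress in 100 mM NaCl for 1, 6 or 12 hr, with 3 libraries each, 21 in all. Single-end RNA-Seq reads were counted per gene model. The study calls the 3 libraries of a group biological replicates. Unstressed roots were taken at 0 hr only, so stress and the hours since the control harvest, including the time of day, cannot be told apart in any comparison with the control.

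Many plant transcripts follow a daily rhythm set by the circadian clock, which in Arabidopsis is built from transcription factors that repress each other at different times of day. Roots also respond to a loss of water, sensed through osmotic changes and the hormone abscisic acid, and salt adds an ionic component to the osmotic one. The files give gene identifiers without names or functions. For 14 of the 150 members a transcription factor class is listed in the study's supplementary material, a list chosen on these same samples, and for the other 136 members no class or function is given here. The classes were CO-like (6 members), MYB/HD-like (3), TPR (2), Dof (1), PLATZ (1) and SBP (1). The set holds 0 of the HD-Zip genes that the study is about. Marker genes of root and shoot could not be matched to these identifiers, so the labelled tissue was not checked here.

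Library totals ran from 3752853 to 28177205 counts with a median of 6956557, the deepest library being replicate 1 of 1 hr salt. The square root of the common dispersion, the typical spread between replicates beyond counting noise, was 0.306. Sequencing used 3 lanes, of which lane 2 carried every library of salt at 1 and 6 hr and none of the control. The dehydration libraries of 12 hr were all in lane 4, whereas those of salt at 12 hr were spread over the 3 lanes.

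The members together took 0.578 to 0.870% of all counts in the control libraries. At 12 hr their share was 0.154 to 0.193% under dehydration and 0.174 to 0.191% under salt. In between, the share ran from 0.490 to 0.699% at 1 hr and from 0.341 to 0.462% at 6 hr of dehydration. Under salt it was 0.333, 0.689 and 0.686% at 1 hr and 0.303, 0.455 and 0.459% at 6 hr. Replicate 1 of salt at 1 hr therefore stood apart from its mates. In this library 108 of the 150 members were under both other replicates, which was the case for 35.7% of all tested genes, and 46 members were at or under 0.5 times the mean of the mates, against 5.25% of tested genes. Whether the depth of this library has a part in this was not tested. In whole roots, fewer cells of a type and less RNA per cell cannot be told apart.

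**Figure D1:**
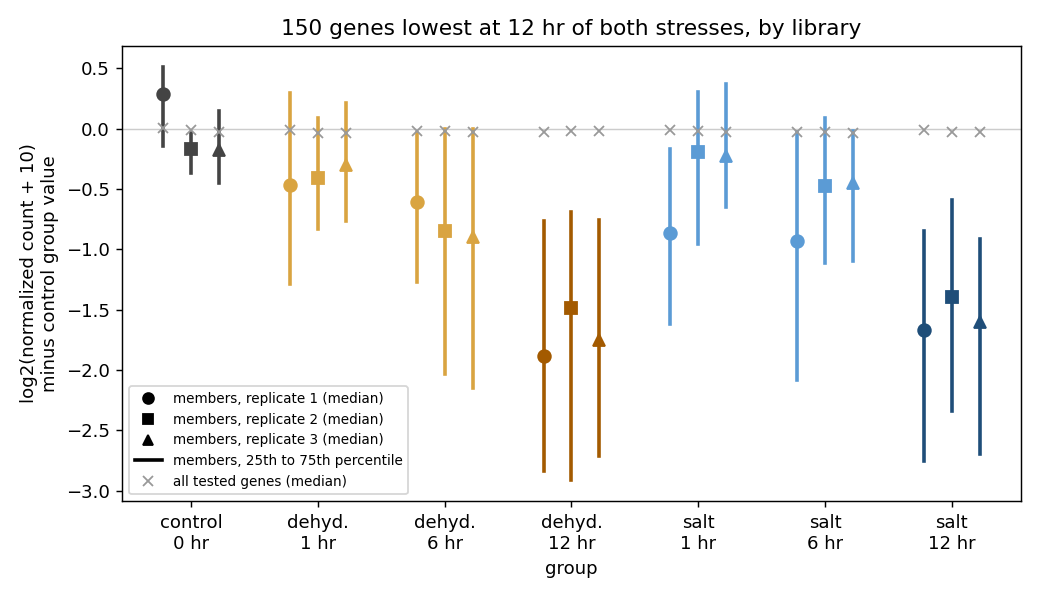
Level of the 150 members in each of the 21 libraries, as log2(normalized count + 10) minus the gene's control group value: markers give the median over members for replicates 1, 2 and 3, bars the 25th to 75th percentile, and crosses the median of all tested genes. The member medians lie near 0 in the control, between -0.45 and -0.93 in the 6 hr libraries and between -1.39 and -1.88 in the 12 hr libraries, while the crosses stay near 0.

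By construction every member was lower at 12 hr than in the other groups, but by very different amounts. The lowest of the 5 other groups was 1.26 to 8.24 times the higher 12 hr group, with a median of 1.61 times, as a ratio of mean normalized counts. The ratio reached 2 in 44 members and 4 in 6 members. On the log2(mean + 10) scale, the median fall from the control to 12 hr was 1.55 under dehydration and 1.49 under salt. In 22 members (14.7%) each of the 6 libraries of 12 hr was under each of the other 15, which holds for 0.0790% of all tested genes, and nothing is read from this since the rule chose for it. Without replicate 1 of salt at 6 hr the number was 36. Against the control, 66 of the 147 members that passed the filter on low counts were called lower at 12 hr of dehydration (1.62% of all tested genes, with 0.392% called higher) and 80 at 12 hr of salt (5.18% of all tested genes, with 7.18% called higher), which is again what the rule asked for. A gene was called when its p from edgeR's quasi-likelihood test, adjusted by the Benjamini-Hochberg method over all 36691 tested genes, was under 0.05 with a fold change of 2 or more. The 3 members that did not pass the filter were Glyma03g33440, Glyma06g39610 and Glyma03g30570.

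Glyma11g21580 had the second highest score (2.64), and its replicates were closest together at 6 hr of salt. It stood at 881, 606 and 518 normalized counts in the control, at 539, 518 and 882 after 1 hr of dehydration, at 287, 276 and 205 after 6 hr and at 21.6, 12.6 and 12.7 after 12 hr. Under salt it stood at 546, 710 and 773, at 348, 365 and 353 and at 35.4, 37.5 and 25.2. The level after 1 hr lay within the range of the control or close to it, the 6 hr libraries were under every control library, and the 12 hr libraries were far under all others. At 6 hr of dehydration the fall from the control was called (log2 fold change -1.37 ± 0.24 (SE), adjusted p = 0.00497, edgeR). At 6 hr of salt the change was -0.93 ± 0.24 (SE) with an adjusted p of 0.0164 (edgeR), which misses the 2-fold limit.

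In Glyma04g26800 no group mean before 12 hr was under that of the control. The mean was 136 in the control and 190 and 232 at 1 hr of dehydration and salt. Its control libraries held 186, 71.9 and 149 normalized counts, those of dehydration 159, 204 and 206 at 1 hr and 179, 143 and 101 at 6 hr, and those of salt 136, 275 and 286 at 1 hr and 152, 173 and 204 at 6 hr. At 12 hr the levels were 11.3, 10.8 and 27.3 under dehydration and 15.4, 16.1 and 11.8 under salt. The lowest earlier library (71.9) was more than the highest 12 hr library (27.3), and the groups at 1 and 6 hr overlapped the control. At 6 hr the difference from the control was 0.07 ± 0.33 (SE, log2) under dehydration and 0.37 ± 0.34 under salt, with adjusted p of 0.951 and 0.514 (edgeR).

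Glyma13g26930 and Glyma15g37980 were similar in course. Glyma13g26930 had 1088, 767 and 755 normalized counts in the control, 1071, 1220 and 1987 at 1 hr, 395, 408 and 382 at 6 hr, then 44.3, 37.7 and 70.9 at 12 hr of dehydration, and 1022, 1246 and 1290, then 598, 540 and 781, then 132, 103 and 84.0 under salt. All dehydration libraries of 6 hr were under all controls, and the fall was called (log2 fold change -1.13 ± 0.25 (SE), adjusted p = 0.0222, edgeR). Under salt at 6 hr the change was -0.46 ± 0.25 (SE) and was not called (adjusted p = 0.233, edgeR). Glyma15g37980 had 567, 351 and 386 in the control and 353, 368 and 285 at 6 hr of dehydration, with 385, 302 and 439 at 6 hr of salt, and then 55.6, 32.4 and 69.1 and 137, 54.4 and 77.3 at 12 hr. Its 6 hr libraries overlapped the control under both stresses and its 12 hr libraries did not.

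**Figure D2:**
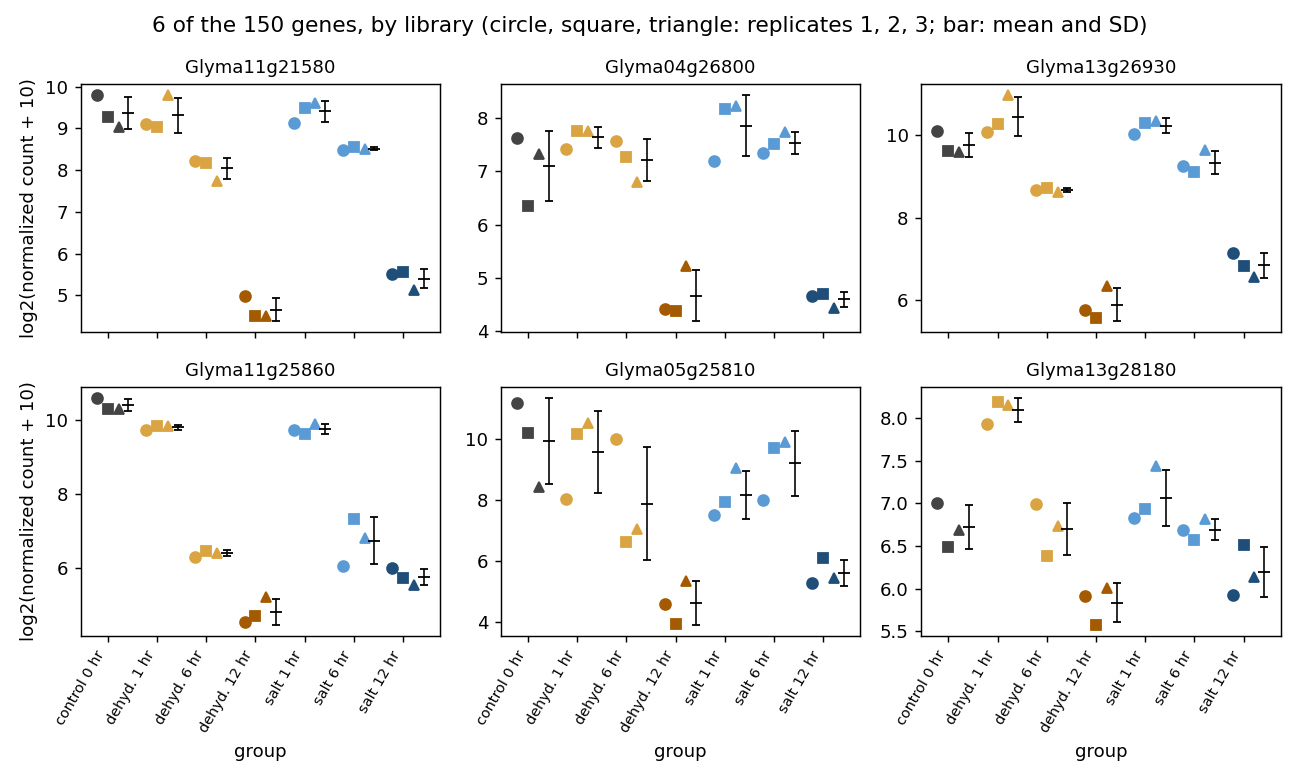
Levels of 6 members in each library as log2(normalized count + 10), by group on the x axis, with circles, squares and triangles for replicates 1, 2 and 3 and the mean and SD of the 3 values at the right of each group. Glyma04g26800 has no group mean under the control before 12 hr, and Glyma11g25860 is already low at 6 hr. Glyma05g25810 varies widely between replicates before 12 hr, and Glyma13g28180 is highest at 1 hr of dehydration.

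The rule sets no direction between the control and 6 hr, although the means of both groups were part of the score. After 6 hr of dehydration 31 of the 147 tested members were called lower than the control and 0 higher, where 1.59% of all tested genes were called lower and 0.442% higher. After 6 hr of salt 30 were called lower and 0 higher, where 3.16% of all tested genes were called lower and 6.49% higher. Over the tested members, 66 under dehydration had an unadjusted p under 0.05 in the lower direction and 0 in the higher, and under salt 50 and 2. DESeq2's Wald test called 0 members higher under dehydration and 1 under salt. The median log2 fold change of the members was -0.98 and -0.52, that of all tested genes 0.02 and -0.03. Both comparisons share the 3 control libraries. With lane as a term in the fit, 25 of the 31 members stayed called lower under dehydration, Glyma13g26930 and Glyma13g37970 being among those lost. Under salt, whose libraries had no control in their lane, 4 of the 30 stayed, Glyma02g41810, Glyma07g01300, Glyma11g07930 and Glyma11g25860, so the other calls at 6 hr of salt given below did not hold in that fit.

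The calls at 6 hr fell as follows: 27 members were called lower under both stresses, 4 under dehydration alone, 3 under salt alone and 113 under neither. The share of all tested genes with each of these joint patterns was not counted, and both comparisons use the same control libraries. Nothing about the set is therefore read from these counts. A call under a single stress is no test of a difference between the stresses. The 27 members had median log2(mean + 10) differences from the control of -0.78 and -0.87 at 1 hr, -2.20 and -2.18 at 6 hr, then -3.16 and -2.85 at 12 hr, of dehydration and salt. In the 113 members without a call the medians were -0.13 and -0.05 at 1 hr, -0.28 and -0.23 at 6 hr, then -1.14 and -1.19 at 12 hr. These medians describe groups made from the 6 hr calls. Over the whole set, 82 members were within 2-fold of the control at 6 hr of both stresses, and 22 of these 82 were at least 2-fold below it at 12 hr of both, on the log2(mean + 10) scale.

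Glyma11g25860 had the smallest p at 6 hr of both stresses among the members. It stood at 1511, 1244 and 1245 normalized counts in the control and at 834, 897 and 895 after 1 hr, 69.3, 78.0 and 75.3 after 6 hr, then 13.4, 16.2 and 27.3 after 12 hr of dehydration. Under salt it stood at 834, 777 and 934, at 56.8, 150 and 102 and at 53.9, 42.9 and 37.0. The replicates agree closely in the control and at 1 hr, but span 56.8 to 150 at 6 hr of salt and 13.4 to 27.3 at 12 hr of dehydration. The libraries of successive times do not overlap, though under salt the lowest of 6 hr (56.8) is near the highest of 12 hr (53.9). Its log2 fold change at 6 hr was -4.16 ± 0.27 (SE, adjusted p = 4.58e-07) under dehydration and -3.72 ± 0.27 (SE, adjusted p = 7.9e-07) under salt (edgeR), and it remained called in each fit without a library and with lane as a term.

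Glyma06g16600 had fallen already at 1 hr. Its control libraries held 760, 643 and 472 normalized counts and its 1 hr libraries 141, 153 and 204 under dehydration and 159, 120 and 164 under salt. At 6 hr it was at 59.3, 41.5 and 41.6 and at 18.9, 77.6 and 77.7, and at 12 hr at 26.8, 28.8 and 21.8 and at 12.3, 23.0 and 12.6. All 1 hr libraries were under all controls, and the salt libraries of 6 and 12 hr overlapped. The change at 1 hr was -1.93 ± 0.34 (SE, adjusted p = 0.00679) under dehydration and -2.10 ± 0.34 (SE, adjusted p = 0.00596) under salt, and at 6 hr -3.70 ± 0.37 and -3.42 ± 0.37 (adjusted p = 3.57e-05 and 3.39e-05, edgeR). With lane as a term the 1 hr calls were lost (adjusted p = 0.0718 and 0.797, edgeR), and those of 6 hr were kept under dehydration.

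Glyma16g23420 and Glyma07g01300 were called lower at 6 hr of both stresses. Glyma16g23420 stood at 321, 316 and 376 normalized counts in the control and at 151, 85.0 and 112 after 1 hr, 102, 81.1 and 74.2 after 6 hr, then 44.7, 65.1 and 47.1 after 12 hr of salt. Its changes of -1.55 ± 0.20 (SE, adjusted p = 0.00125) at 1 hr and -2.01 ± 0.21 (SE, adjusted p = 2.52e-05) at 6 hr of salt were called (edgeR), though not with lane as a term (adjusted p = 0.587 and 0.124, edgeR). Its salt libraries of 1 and 6 hr overlapped. Under dehydration it stood at 212, 170 and 222, then 94.7, 78.0 and 96.5, then 55.6, 57.5 and 61.8. Glyma07g01300 went from 431, 521 and 350 in the control to 104, 124 and 138 at 6 hr of dehydration (log2 fold change -1.82 ± 0.19 (SE), adjusted p = 5.04e-05, edgeR) and to 140, 102 and 135 at 6 hr of salt. At 12 hr it was at 72.0, 88.1 and 67.3 and at 95.5, 83.4 and 68.1.

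After 1 hr few members were called against the control. Under dehydration 2 members were called higher and 5 lower, where 1.15% of all tested genes were called higher and 1.43% lower. Under salt 1 was called higher and 6 lower, where 0.867% of all tested genes were called higher and 0.730% lower. These counts rest on single libraries. Under dehydration the 7 calls became 3 without control replicate 1, without replicate 1 or without replicate 2 of that group, and 4 without control replicate 2, replicate 1 of dehydration at 12 hr or replicate 2 of salt at 1 hr. Under salt the 7 calls became 2 without control replicate 1, 3 without control replicate 2 or replicate 3 of that group, and 4 without its replicate 2. With lane as a term, Glyma13g28180 was the 1 member called at 1 hr of dehydration and 0 were called for salt at the same time, so the other calls at 1 hr did not hold in that fit.

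Glyma13g28180 and Glyma18g01180 were the members called higher at 1 hr. At 1 hr of dehydration 11 members had an unadjusted p under 0.05 in the higher direction and 33 in the lower (edgeR). The share of all tested genes at this limit was not counted, so nothing is read from these numbers. Glyma13g28180 had 118, 79.9 and 92.6 normalized counts in the control, 235, 282 and 274 after 1 hr of dehydration, 117, 73.0 and 96.5 after 6 hr, then 50.4, 37.7 and 54.5 after 12 hr. Its 1 hr libraries were above all others, with a log2 fold change of 1.42 ± 0.23 (SE, adjusted p = 0.00396, edgeR). Under salt it had 103, 112 and 164 at 1 hr, which overlaps the control, 93.3, 84.6 and 103 at 6 hr, then 50.8, 81.2 and 60.5 at 12 hr. Glyma18g01180 had 124, 145 and 124 in the control, and rose to 277, 356 and 408 at 1 hr of dehydration (log2 fold change 1.38 ± 0.25 (SE), adjusted p = 0.00744, edgeR) and to 228, 201 and 431 at 1 hr of salt (1.10 ± 0.24 (SE), adjusted p = 0.0299, edgeR). At 6 hr it was at 152, 135 and 143 and at 131, 190 and 183, and at 12 hr at 95.7, 117 and 76.3 and at 73.9, 81.2 and 60.5. With lane as a term the rise of Glyma18g01180 at 1 hr of dehydration had an adjusted p of 0.089 (edgeR). Over the whole set the group of highest mean was the control for 79 members, 1 hr of dehydration for 30, 1 hr of salt for 24, 6 hr of dehydration for 10 and 6 hr of salt for 7.

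The CO-like class, named for CONSTANS of Arabidopsis, holds zinc finger transcription factors with B-box domains, some of which act in photoperiodic flowering and light signalling there. Of the 39 listed soybean genes of this class 34 were tested, 6 of them members, and 9 of the 39 had a score above 0. Among the 34, 3 were called higher and 9 lower at 6 hr of dehydration and 4 higher and 8 lower at 6 hr of salt, and the median log2 fold change was -1.13 and -0.56. Of all tested genes, 0.442% were called higher and 1.59% lower at 6 hr of dehydration, and 6.49% higher and 3.16% lower under salt. At 1 hr 0 were higher and 3 lower under dehydration, and 0 higher and 1 lower under salt. The class was listed by the study from these samples, so its counts are no independent evidence of a direction.

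Of the CO-like members called at 6 hr, Glyma11g07930 and Glyma01g37370 fell the most. Glyma11g07930 stood at 948, 596 and 533 normalized counts in the control, at 356, 390 and 500 after 1 hr of dehydration, at 161, 155 and 112 after 6 hr and at 34.0, 39.5 and 38.2 after 12 hr. Under salt it stood at 346, 420 and 516, at 80.2, 129 and 112 and at 67.7, 42.1 and 52.1. Every stressed library was under every control library. The change at 6 hr was -2.27 ± 0.24 (SE, adjusted p = 6.09e-05) under dehydration and -2.71 ± 0.25 (SE, adjusted p = 6.34e-06) under salt (edgeR). Glyma01g37370 went from 632, 387 and 282 to 94.7, 82.2 and 67.3 at 6 hr of dehydration and to 32.1, 54.7 and 71.7 at 6 hr of salt, and the changes of -2.40 ± 0.35 and -3.01 ± 0.36 (SE) were called (adjusted p = 0.00124 and 0.000139, edgeR). Its salt libraries of 12 hr (41.6, 28.3 and 29.4) overlapped those of 6 hr, and its dehydration libraries of 12 hr were at 47.3, 30.6 and 19.995.

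Glyma13g37970 fell less. It had 426, 417 and 289 in the control, 152, 154 and 179 at 6 hr of dehydration and 162, 185 and 160 at 6 hr of salt, with changes of -1.21 ± 0.25 and -1.18 ± 0.25 (SE, adjusted p = 0.0156 and 0.00616, edgeR). Glyma12g11230 went from 112, 85.4 and 61.0 to 39.5, 39.0 and 38.1 at 1 hr of dehydration (log2 fold change -1.17 ± 0.30 (SE), adjusted p = 0.0431, edgeR), was at 41.6, 39.8 and 36.3 at 6 hr and reached 16.5, 19.8 and 5.45 at 12 hr. Under salt it was at 48.6, 38.5 and 42.5, then 40.8, 67.0 and 50.8, then 18.5, 13.0 and 17.6. Its level was thus flat between 1 and 6 hr of dehydration, and all 12 hr libraries were under all others.

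Glyma11g13570 and Glyma15g03400 were the CO-like members with the widest spread between replicates. Glyma11g13570 had 549, 295 and 269 in the control, 100, 140 and 475 at 1 hr, 348, 60.6 and 74.4 at 6 hr, then 55.6, 27.0 and 52.7 at 12 hr of dehydration, and 75.3, 132 and 296, then 40.8, 397 and 413, then 27.7, 115 and 58.0 under salt. Neither 6 hr comparison was called for Glyma11g13570 (adjusted p = 0.497 and 0.787, edgeR). Glyma15g03400 had 116, 58.5 and 30.9 in the control, 22.3, 1.66 and 2.66 at 6 hr of dehydration and 1.46, 29.98 and 24.9 at 6 hr of salt. Replicate 1 was the highest library at 6 hr of dehydration and the lowest at 6 hr of salt in both genes.

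**Figure D3:**
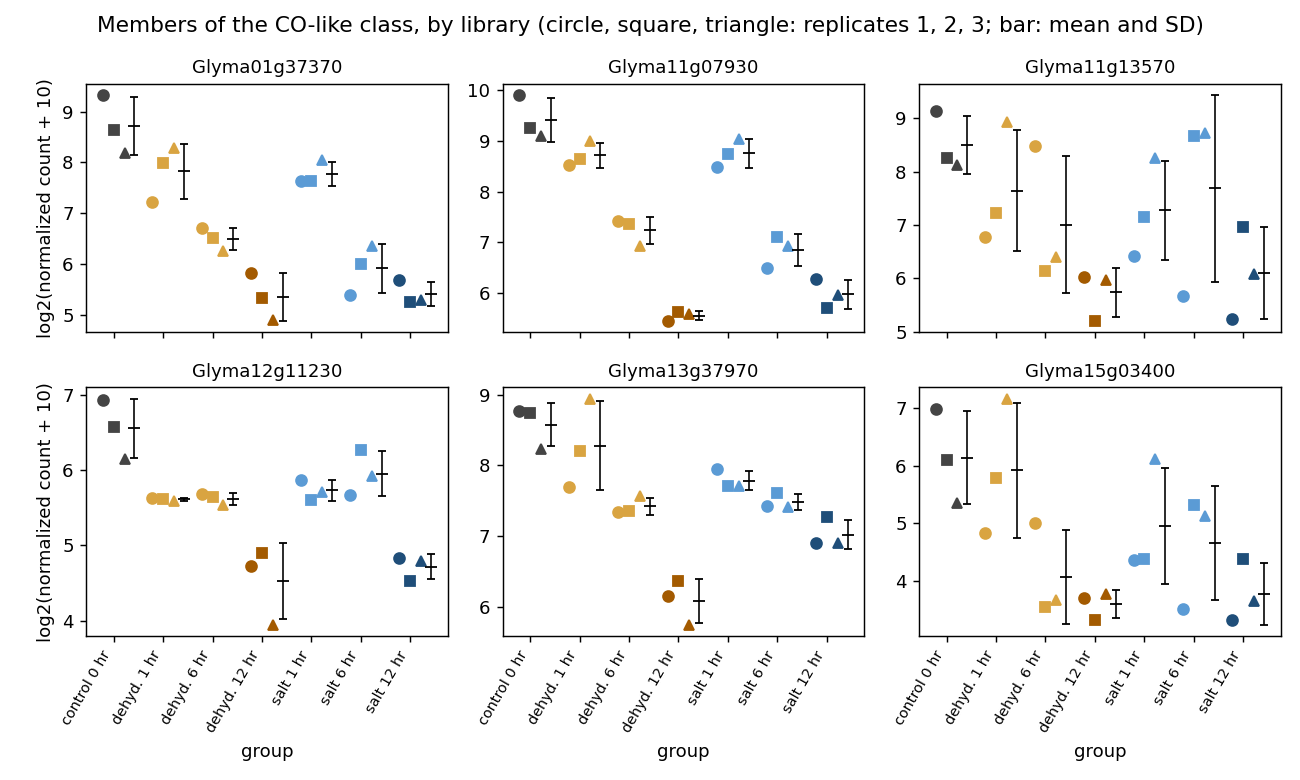
Levels of the 6 CO-like members in each library as log2(normalized count + 10), by group on the x axis, with circles, squares and triangles for replicates 1, 2 and 3 and the mean and SD at the right of each group. Glyma11g07930 and Glyma01g37370 have every 6 hr library under every control library. Glyma11g13570 and Glyma15g03400 have replicate 1 high at 6 hr of dehydration and low at 6 hr of salt.

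The 3 MYB/HD-like members, of a class of DNA-binding regulators that in Arabidopsis includes components of the circadian clock, were all called lower at 6 hr of both stresses. Of the 130 tested genes listed for the class, 3 were called higher and 20 lower at 6 hr of dehydration, with a median log2 fold change of -0.29. Under salt 34 were called higher and 18 lower, with a median of 0.71. All tested genes gave 0.442% higher and 1.59% lower under dehydration, and 6.49% higher and 3.16% lower under salt. The study listed genes found differentially expressed in these samples, so these class counts and those below do not cover whole families. Glyma10g05560 had 194, 120 and 76.4 normalized counts in the control, 10.005, 6.64 and 9.74 at 6 hr of dehydration, with 8.74, 15.9 and 6.97 at 6 hr of salt, and 0, 0 and 3.64 and 6.16, 3.83 and 0.840 at 12 hr. The changes at 6 hr were -3.86 ± 0.59 and -3.73 ± 0.61 (SE, adjusted p = 0.0021 and 0.00121, edgeR). Glyma09g29800 went from 1247, 700 and 529 to 112, 154 and 108 and to 75.8, 146 and 250 at 6 hr (-2.72 ± 0.42 and -2.38 ± 0.41 (SE), adjusted p = 0.00209 and 0.0018, edgeR). At 12 hr it was at 32.9, 23.4 and 43.6 and at 106, 96.5 and 63.9.

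Glyma05g06070 was already low at 1 hr: from 624, 419 and 326 in the control it went to 142, 137 and 209 after 1 hr of dehydration and to 111, 162 and 182 after 1 hr of salt. Both changes were called (-1.51 ± 0.29 and -1.62 ± 0.29 (SE), adjusted p = 0.0109 and 0.0112, edgeR). Without control replicate 1 the call at 1 hr of salt was lost (-1.31, adjusted p = 0.0858, edgeR), and with lane as a term neither call held (adjusted p = 0.0572 under dehydration and 0.699 under salt, edgeR). At 6 hr Glyma05g06070 was at 131, 124 and 70.8 and at 91.8, 129 and 111, and at 12 hr at 71.0, 68.3 and 63.6 and at 58.5, 102 and 54.6, so that most of its fall came in the earliest hour.

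Dof factors are plant-specific zinc finger regulators. Of 22 listed genes tested, 1 was called higher and 8 lower at 6 hr of dehydration, and 2 higher and 4 lower under salt. The Dof member Glyma04g33410 was called lower in all 4 comparisons of 1 and 6 hr with the control. Its libraries held 358, 310 and 135 normalized counts in the control, 93.6, 125 and 136 at 1 hr, 46.9, 51.5 and 61.1 at 6 hr, then 37.1, 25.2 and 60.0 at 12 hr of dehydration, and 83.7, 86.0 and 109, then 51.0, 60.0 and 73.2, then 33.9, 35.2 and 26.9 under salt. The change at 6 hr was -2.32 ± 0.32 under dehydration and -2.12 ± 0.32 under salt (SE, adjusted p = 0.000752 and 0.000637, edgeR). Its 6 and 12 hr libraries of dehydration overlap, and its score of 0.316 was the fifth from the bottom of the set.

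Of the other listed classes, TPR proteins carry tetratricopeptide repeats that bind other proteins, PLATZ proteins are zinc-dependent DNA-binding proteins of plants, and SBP factors are plant regulators of the change from juvenile to adult growth in Arabidopsis. At 6 hr, 2 of the 43 listed TPR genes tested were called higher and 2 lower under dehydration, and 11 higher and 3 lower under salt. Of the 10 listed PLATZ genes 0 were higher and 2 lower under dehydration and 0 higher and 1 lower under salt. Of the 3 listed SBP genes 0 were called under dehydration and 1 was higher under salt. The TPR member Glyma05g30040 went from 219, 60.1 and 74.1 to 5.83, 28.2 and 27.4 at 6 hr of salt (-2.49 ± 0.67 (SE), adjusted p = 0.0206, edgeR) and to 27.7, 19.1 and 18.6 at 6 hr of dehydration, which missed the threshold (-2.41 ± 0.65 (SE), adjusted p = 0.061, edgeR). Glyma08g13160, the other TPR member, was scarce, with 0 to 6 raw counts in the 12 hr libraries. The PLATZ member Glyma11g03370 had 5.75, 10.3 and 32.4 normalized counts in the control and 2.06, 5.39 and 1.82 and 1.54, 6.89 and 2.52 at 12 hr, and was called in none of the comparisons of 1 and 6 hr with the control. In all, 7 of the 14 members with a listed class and 20 of the 136 without were called lower at 6 hr of both stresses. Of the 136, 3 were not tested. A class is listed only for genes the study found differentially expressed in these samples, so nothing is read from this difference.

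Salt and dehydration could be compared directly at 12 hr. The rule uses the higher of the 12 hr groups and so favours members that are low in both, and the tests draw on values that chose the members. Of the members, 5 were called higher in salt than in dehydration and 1 lower, where 7.73% of all tested genes were called higher and 3.85% lower. The mean was lower under dehydration in 92 of the 150 members and under salt in 58. The number of members called was 3 when replicate 1 or 3 of dehydration at 12 hr was left out, and 0 with lane as a term, where all dehydration libraries of 12 hr were in lane 4.

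The 5 members that were higher under salt were Glyma20g31740, Glyma11g25860, Glyma07g05530, Glyma13g26930 and Glyma13g37970. Glyma07g05530 had the clearest difference, with 129, 131 and 109 normalized counts under dehydration and 274, 269 and 240 under salt (log2 difference 1.05 ± 0.23 (SE), adjusted p = 0.00578, edgeR). Until 6 hr it stayed near its control libraries of 538, 519 and 483, at 343, 512 and 392.2 at 6 hr of dehydration and 337, 561 and 724 at 6 hr of salt. Leaving out replicate 3 of dehydration at 12 hr gave a difference of 0.98, just under the 2-fold limit. Glyma20g31740 had 6.18, 3.60 and 7.27 under dehydration and 21.6, 29.1 and 23.5 under salt (2.06 ± 0.67 (SE), adjusted p = 0.0462, edgeR). With 2 to 6 raw counts per dehydration library this call was fragile and was lost in 13 of the 21 fits that left out a library, with adjusted p up to 0.138 (edgeR).

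For Glyma11g25860 the levels at 12 hr, given above, differed by 1.23 ± 0.31 (SE, log2, adjusted p = 0.0141, edgeR), and the call was lost without replicate 1 or 2 of 12 hr dehydration (1.0096 and 1.1586, adjusted p = 0.0834 and 0.0563). For Glyma13g26930 they differed by 1.03 ± 0.28 (SE, adjusted p = 0.0184, edgeR), and the call was lost without replicate 1 or 2 of dehydration or replicate 1 of salt (0.95, 0.88 and 0.86). In Glyma13g37970, of the CO-like class, the libraries held 60.7, 71.9 and 43.6 under dehydration and 109, 144 and 109 under salt, a difference of 1.006 ± 0.27 (SE, adjusted p = 0.0192, edgeR), and the call was lost without replicate 1 or 3 of dehydration or replicate 2 of salt (1.05, 0.85 and 0.87). In all 5 genes the 3 salt libraries were above the 3 dehydration libraries.

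Glyma11g36980, of the SBP class, was the member lower under salt. It had 106, 103 and 123.5 normalized counts in the control, 97.5, 131 and 55.9 at 1 hr, 70.8, 41.5 and 81.5 at 6 hr, then 54.5, 57.5 and 36.4 at 12 hr of dehydration, and 70.1, 90.9 and 111, then 115, 88.2 and 71.2, then 12.3, 21.4 and 15.97 under salt. The difference at 12 hr was -1.58 ± 0.35 (SE, log2, adjusted p = 0.00735, edgeR) and was called in each fit without a library. Its dehydration libraries of 6 and 12 hr overlapped, whereas those of salt did not.

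**Figure D4:**
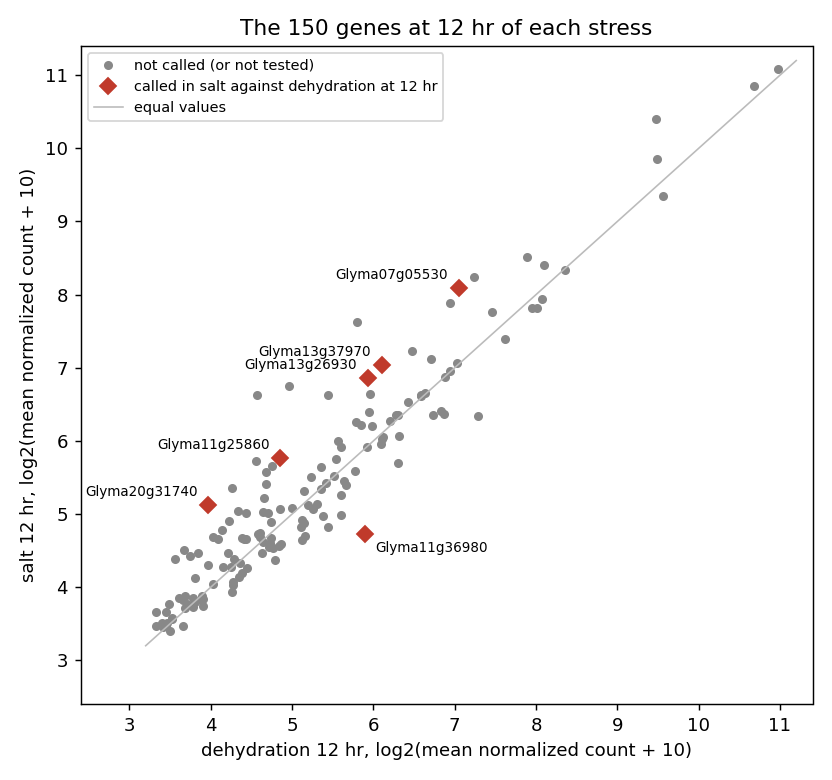
Level of the 150 members at 12 hr of dehydration (x axis) and salt (y axis), each as log2(mean normalized count of 3 libraries + 10), with the line of equal values and the 6 called members as diamonds. Most members lie near the line, 5 diamonds lie above it and Glyma11g36980 lies below it.

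At 6 hr, where the libraries of salt and dehydration share no lane, 1 member was called higher in salt and 0 lower, where 9.39% of all tested genes were called higher and 5.27% lower. The rule, which takes the lowest of the 5 groups before 12 hr, again favours members that are alike there. The member was Glyma09g37430, chosen for mention after its values were seen, with 46.9, 49.8 and 20.4 normalized counts under dehydration and 191, 101 and 46.8 under salt (1.47 ± 0.47 (SE), adjusted p = 0.0318, edgeR). Its highest dehydration library and its lowest salt library overlap. Without replicate 1 of dehydration at 6 hr 8 members were called higher in salt, without replicate 3 of that group or replicate 2 of salt at 6 hr 0 were, without replicate 3 of dehydration at 12 hr 2 were, and with lane as a term 0 were.

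Replicate 1 of dehydration at 6 hr was far above its mates in a group of members. In 14 of the 150 members (9.33%) its normalized count plus 10 was at least 3 times the mean of replicates 2 and 3 plus 10, which holds for 1.698% of all tested genes. The limit of 3 was chosen after the values were seen. As far below its mates, it stood in 1 member. The highest score of the set belongs to this group: Glyma05g25810 had 2289, 1165 and 333 normalized counts in the control, 252, 1127 and 1458 at 1 hr and 1008, 88.0 and 122 at 6 hr of dehydration, and 173, 235 and 518 and then 243, 820 and 949 at 1 and 6 hr of salt. At 12 hr it had 14.4, 5.39 and 30.9 under dehydration and 29.3, 58.9 and 33.6 under salt. Before 12 hr each group spanned at least 3-fold between libraries, and yet no 12 hr library reached the lowest of them (88.0).

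Other members of high score shared this course. Glyma08g08770 had 2960, 1175 and 628 in the control, 627, 1610 and 5739 at 1 hr and 1791, 163 and 253 at 6 hr of dehydration, and 372, 412 and 1207 and 707, 2391 and 2274 at 1 and 6 hr of salt. Glyma14g01130 had 1450, 623 and 346, then 316, 710 and 1569, then 713, 100 and 120, and 176, 303 and 499 and 203, 1158 and 1003. In both the highest libraries were replicate 1 in the control and at 6 hr of dehydration, replicate 3 at 1 hr, and replicates 2 and 3 at 6 hr of salt. The levels at 12 hr were 67.9, 21.6 and 47.3 and 128, 272 and 166 in Glyma08g08770, and 9.26, 7.19 and 47.3 and 52.3, 191 and 47.9 in Glyma14g01130.

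Glyma11g35030 and Glyma12g34770, also among the 12 highest scores, had 1268, 218 and 226 and 102, 14.9 and 22.1 at 6 hr of dehydration and 219, 1322 and 1160 and 34.98, 79.3 and 78.7 at 6 hr of salt. In Glyma11g35030 the control held 3434, 2249 and 1528, and in Glyma12g34770 311, 150 and 72.5. Of the 14 members 12 had control replicate 1 highest and replicate 3 lowest, which was the order in 50 of the other 136 members and in 24.998% of tested genes. All 14 had replicate 3 highest at 1 hr of salt, against 79 of the other 136 and 35.8% of tested genes, and all 14 had replicate 1 lowest at 6 hr of salt, against 72 of the other 136 and 33.8% of tested genes. Replicate 1 of salt at 6 hr is also the library with the lowest member share of its group. At 1 hr of dehydration 8 of the 14 had replicate 1 lowest and replicate 3 highest, against 39 of the other 136 and 19.2% of tested genes. None of these 5 genes was called in any comparison of 1 or 6 hr with the control, where their standard errors ran from 0.61 to 0.87 on the log2 scale.

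**Figure D5:**
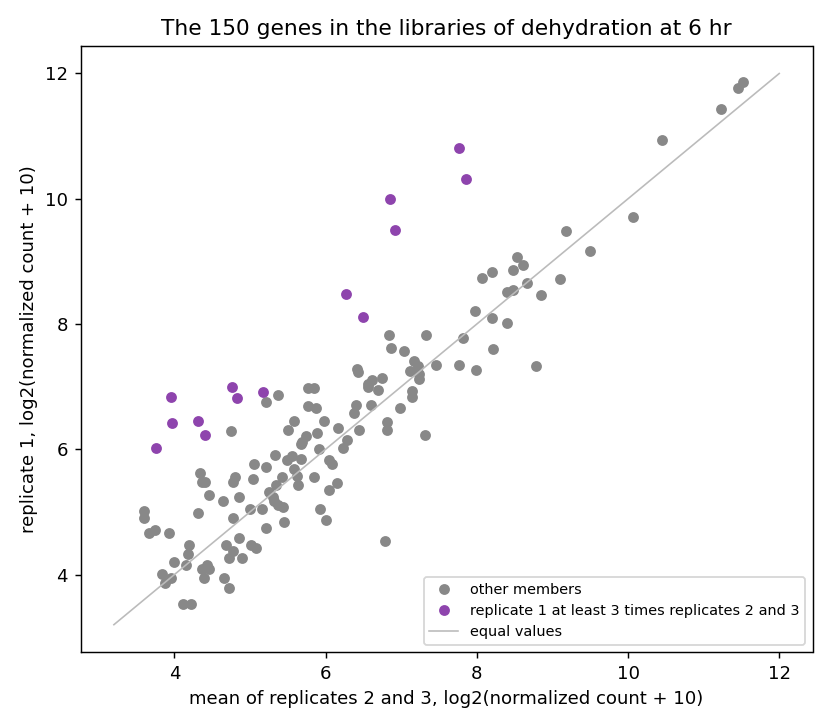
Level of the 150 members in replicate 1 of dehydration at 6 hr (y axis) against the mean of replicates 2 and 3 of the same group (x axis), each as log2(normalized count + 10), with the line of equal values. The 14 members in which replicate 1 was at least 3 times its mates stand above the line, and most others lie along it.

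The spread between replicates was in general wider in the members than elsewhere. The median coefficient of variation of the normalized counts within a group was 31.4 to 46.5% over the members and 20.7 to 26.3% over all tested genes, and it was highest in both at 6 hr of salt. The order of replicates has no meaning of its own, since the replicate number is only a name, and what the 14 members share beyond it was not tested.

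Some members had identifiers close together. Within 10 gene models by identifier there were 9 pairs, made of 15 members. The number of such pairs among as many other genes was not counted, so nothing is read from this. Glyma17g14850, Glyma17g14860 and Glyma17g14890 on chromosome 17 formed the densest stretch. Glyma17g14860 had 679, 506 and 637 normalized counts in the control, 704, 795 and 340 and 200, 691 and 281 at 6 hr, and 65.9, 126 and 90.9 and 120, 185 and 84.0 at 12 hr of dehydration and salt. Glyma17g14890 had 4702, 2739 and 2892 in the control, 3704, 3605 and 2276 and 1694, 2879 and 1924 at 6 hr, and 799, 460 and 838 and 1384, 1445 and 1209 at 12 hr. In both genes replicate 1 of salt at 1 hr was far under its mates, at 165 against 1474 and 964 and at 924 against 5227 and 3273. Between these members, Glyma17g14880 did not share the course, with means of 1030 in the control and 1270 and 1865 at 12 hr, a gene named here after its values were seen.

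Glyma19g31310 and Glyma19g31320 on chromosome 19 had nearly the same counts throughout: the ratio of the second to the first was 1.05 to 1.20 in all 21 libraries. Whether reads of overlapping models were counted for both is not given in the sources used here, so the pair is uncertain as 2 separate members. In the other pairs the ratio moved by more than 3-fold between libraries. By chromosome, 17 members (11.3%) were on chromosome 11, which holds 5.23% of tested genes, 12 were on chromosome 13 (6.96% of tested genes) and 11 on chromosome 8 (6.91%). This is a description, with no test.

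Among the members with most counts in the control, Glyma11g03690 and Glyma01g41670 had small relative differences, the lowest other group being 1.30 and 1.37 times the higher 12 hr group. Glyma11g03690 had 4564, 3422 and 2696 in the control and 1721, 2013 and 2281 and 2422, 1976 and 2117 at 12 hr. Glyma01g41670 had 3288, 2291 and 1960 and then 1493, 1605 and 1787 and 1755, 2005 and 1736. The 12 hr libraries were under the control libraries, except for an overlap with control replicate 3 in Glyma01g41670. Replicate 1 of salt at 1 hr, at 1621 and 1508, was under all 12 hr libraries in Glyma11g03690 and under all but the lowest in Glyma01g41670. The counts are not scaled by gene length, so levels are not compared between genes.

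The remaining members of high score were less certain for lack of counts or agreement. Glyma08g12880 had 125, 395 and 324 normalized counts in the control, 142, 120 and 137 at 6 hr of dehydration and 200, 63.5 and 281 at 6 hr of salt, and 16.5, 16.2 and 60.0 and 60.0, 36.7 and 23.5 at 12 hr. Glyma07g37380 had 186, 109 and 106, then 77.7, 63.1 and 43.4 and 13.1, 63.5 and 94.1 at 6 hr, and 10.3, 14.4 and 27.3 and 18.5, 9.19 and 11.8 at 12 hr, with 8 to 15 raw counts per 12 hr library. Replicate 1 of salt at 6 hr (13.1) lies within its 12 hr range. In 29 members the control mean was under 30 normalized counts, and in 20 the highest raw count of any 12 hr library was under 10.

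The lower edge of the set is not sharp. Just inside it stood Glyma04g33410, Glyma14g31370, Glyma17g16660, Glyma16g32570 and Glyma01g40470 with scores of 0.316, 0.314, 0.314, 0.313 and 0.313. Just outside stood Glyma06g43580, Glyma08g43760, Glyma14g03110, Glyma06g45620 and Glyma14g38700 with 0.309, 0.309, 0.309, 0.309 and 0.308. Glyma01g40470, the last inside, had means of 11.8 in the control and 0 and 1.07 at 12 hr of dehydration and salt, and Glyma06g43580, the nearest outside, 35.6 and then 2.24 and 0.791.

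Within single lanes the 12 hr libraries were also mostly the lowest. The earlier libraries of lane 2 were 6 of salt at 1 and 6 hr, with no control. The salt library of 12 hr was under all of them in 97 members (64.7%, against 14.0% of tested genes). Those of lane 3 were 6 of the control and of dehydration at 1 and 6 hr. There the salt library of 12 hr was under all 6 in 93 members (62.0%, against 22.6%). Lane 4 held 3 earlier libraries, of the control and of dehydration at 6 hr. The 3 dehydration libraries of 12 hr were all under these in 94 members (62.7%, against 4.83%). The salt library of 12 hr was so in 131 (87.3%, against 29.0%). The lanes thus differ in the libraries compared. All of these libraries took part in the choice of the members, so the shares describe the set and nothing is read from them.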

How the data were processed

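Roots of soybean seedlings were profiled by RNA-Seq in 7 groups of 3 libraries. The authors aligned the reads with GSNAP and deposited raw counts of uniquely mapped reads per gene model, and a normalized signal made with DESeq 1.7.10 by dividing each count by 1 size factor per library. The counting program and its use of strand are not given in the sources used here. The members were chosen on the normalized signal, and members and lists were chosen with earlier results of these data known. The raw counts, 3752853 to 28177205 per library, were filtered with filterByExpr, which left 36691 genes, and fitted in 1 model of the 7 groups with edgeR 4.0.16 (TMM, robust quasi-likelihood, Benjamini-Hochberg adjustment, R 4.3.3). Standard errors are the log2 fold change divided by the square root of F. The edgeR, limma and DESeq2 tests were run on simulated counts in which all genes had the same dispersion. This covered 6 hr of each stress against the control and salt against dehydration at 12 hr. The other comparisons and the fits with lane or replicate block were not simulated. Lanes were taken from the study's own list. Named genes are the 12 highest scores, members with a listed class, up to 5 members with the largest difference in each direction called between salt and dehydration at 12 hr, the 3 smallest p-values per comparison of 1 and 6 hr with the control, the 5 genes on each side of the threshold and the 5 highest control means. Alternatives were DESeq2 1.42.0 (size factors, Wald test), limma 3.58.1 on the normalized signal, no filter, no fold limit, 6 libraries only, lane, replicate number as a block, other forms of the rule and each library left out. Gene names, sequences, promoter motifs and duplicate partners were not analysed here.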

Additional observations from a re-analysis of the deposited data

Results flagged for a closer look

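Among the comparisons of the same time under the 2 stresses, 6 members differed between salt and dehydration at 12 hr and 1 at 6 hr by edgeR's quasi-likelihood test of the difference itself. The values of these groups were part of the score that chose the members, and the score favours members alike under both stresses, so these are descriptions of single genes. At 12 hr the log2 difference of salt minus dehydration was 2.06 in Glyma20g31740, 1.23 in Glyma11g25860, 1.05 in Glyma07g05530, 1.03 in Glyma13g26930, 1.006 in Glyma13g37970 and -1.58 in Glyma11g36980. With 3 libraries a group, single libraries far from their mates were not tested for.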

How the results depend on the processing

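For salt against dehydration at 12 hr the number of members called was 6, and it was 0 with lane as a term, 10 and 3 with limma on log2 of the normalized signal plus 1 and plus 10, and 3 to 7 without each library in turn. At 1 hr of dehydration against the control it was 7, and 12 with DESeq2's Wald test, 1 with lane, 4 with the replicate block, 4 with limma plus 1, and 3 to 8 without each library. At 1 hr of salt it was 7, and 13 with DESeq2, 0 with lane, 1 with only the 6 libraries compared, and 2 to 9 without each library. At 6 hr of salt it was 30, 4 with lane and 22 to 34 without each library, and at 6 hr of dehydration 31, 25 to 43 over the 9 other alternatives and 22 to 35 without each library. For salt against dehydration at 6 hr it was 1, and 2 with DESeq2, 0 with lane, 2 with limma plus 10, 0 with only the 6 libraries compared, and 0 to 8 without each library. Beside these counts of 0, the main fit gave unadjusted p under 0.05 in 13 members higher and 2 lower at 12 hr, 5 higher and 39 lower at 1 hr of salt, and 4 higher and 0 lower at 6 hr. Of the 150 members the rule kept 95 with a pseudocount of 1, 109 with 50, 146 with TMM scaling, 84 with medians in place of means, and 106 to 145 without each library. The members with all 12 hr libraries under the others numbered 22, 23 with TMM scaling and 22 to 36 without each library. None of the gene results followed through every alternative reversed its direction. Among the other members called lower at 6 hr of salt, Glyma04g00270 and Glyma05g08460 changed sign with lane as a term. Their log2 fold changes were then 0.08 and 0.09 (adjusted p = 0.985 and 0.98, edgeR). The cause of these changes was not tested.

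The replicate numbers did not pair the libraries: 16 of 63 same-numbered pairs had deviations correlated over 0.1 and 3 of 21 libraries correlated better with their own number. With the replicate block 4 members were called for salt against dehydration at 12 hr and 1 at 6 hr, and against the control 4 and 5 members at 1 hr, with 29 and 30 by 6 hr, of dehydration and salt. Other settings for promoter motifs and duplicate partners were not run. Counts near 0 at 12 hr limit the size of the fall that can be measured in the 20 scarcest members.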
